A study of Homo sapiens with 16 samples.

Results

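The kinesin superfamily was followed in nascent transcription of LNCaP cells, an established human prostate cancer line. Members were all protein-coding genes whose symbol is KIF with a number and an optional letter, with KIFC1, KIFC2 and KIFC3. There were 42 such genes among the 60605 gene identifiers counted. By textbook role, 13 were set down as mitotic motors, 17 as motors of membrane and cargo transport, and 12 as other kinesins, the ciliary and hedgehog members, the remaining kinesin-13 genes and members of uncertain or mixed role. The classes were chosen with earlier results of these data known.

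The assay was PRO-seq, which sequences RNA still held by engaged RNA polymerase and so reads transcription rather than the pool of finished mRNA. A lower count can come from fewer cells transcribing a gene or from less polymerase on it in each cell, and in bulk samples these cannot be told apart. The 12 samples formed 6 groups of 2. In batch 2 the groups were cells kept in vehicle (DMSO) for 90 min, cells that had 30 min of vehicle, 6 Gy of ionizing radiation (IR) and a further 60 min, cells kept in 10 µM enzalutamide for 90 min, and cells that had 30 min of the drug at 10 µM, then 6 Gy and a further 60 min. Enzalutamide is a drug used against prostate cancer. In batch 1 the groups were labelled as mock and 6 Gy, and the labels do not give a time or a vehicle for that batch in particular. Each batch 1 sample was the sum of libraries t1 and t2 of the same replicate number, and what t1 and t2 stand for is not stated. All groups are 1 cell line grown in whole medium. The labels do not say that replicates came from separate cultures, so p-values measure the spread between these samples, which may be technical.

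Kinesins are motor proteins that use ATP to act on microtubules. Mitotic kinesins build the spindle, move and align chromosomes, trim microtubule ends and divide the cell at cytokinesis, and many of their genes are transcribed most in G2 and mitosis. Promoters of such genes often hold a CHR (cell cycle genes homology region), read by the DREAM and MuvB complexes, downstream of CCAAT boxes, which are bound by NF-Y. Transport kinesins carry vesicles, mitochondria and other cargo along microtubules through all phases of the cell cycle and are best known from neurons.

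Depth was 8022989 to 16851473 counts in the 4 batch 1 samples and 10494563 to 19905824 in the 8 batch 2 samples. Among prostate markers, FOLH1 had 956 to 1390 CPM, TMPRSS2 270 to 490 CPM, HOXB13 127 to 185 CPM and KLK2 66.1 to 251 CPM in the 12 samples. KLK3, which encodes prostate-specific antigen, was lower, at 5.28 to 181 CPM with a median of 12.8 CPM. The fibroblast marker COL1A1 had 6.95 to 10.6 CPM and the endothelial marker PECAM1 2.35 to 5.38 CPM, while PTPRC of blood cells stayed at or below 0.903 CPM and KRT5 of basal cells at or below 0.75 CPM. CPM are counts scaled to a common library size, corrected by TMM within a batch, and levels were not compared between batches. The t1 and t2 libraries stood apart: 1 mitotic gene, KIF4A, had 74.7 and 83.6 CPM in the mock t1 libraries and 33 and 34.5 CPM in the irradiated t1 libraries, against 50.5 and 55.4 CPM and 51.2 and 51.9 CPM in the t2 libraries. Batch 1 values are therefore also given for t1 and t2 alone.

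Of the 42 kinesins, 34 had a promoter in the RefSeq table for GRCh38.p14, which spans 250 bases before to 50 after a gene's start. KIF5A, KIF13B, KIF21B, KIFC2, KIFC3, KIF19, KIF26B and KIF27 had none. The promoters below belong to the 6 kinesins that passed the test in all 4 comparisons of radiation described later, followed by KIF1B and KIF5B, the transport kinesins with the highest CPM in vehicle cells. Letters in capitals are matches to the CHR, searched as TTTGAA or TTCGAA, and to the CCAAT box, searched as CCAAT, on both strands, so that a match on the opposite strand reads TTCAAA or ATTGG. No motif matches overlapped one another. Sequences run 5′ to 3′ in the direction of the gene. KIF20A lies at chr5:138178862-138179161 on the plus strand, KIF23 at chr15:69414099-69414398 on the plus strand, KIF14 at chr1:200620702-200621001 on the minus strand, KIF18B at chr17:44947724-44948023 on the minus strand and KIF2C at chr1:44739587-44739886 on the plus strand. KIF1C lies at chr17:4997700-4997999 on the plus strand, the most upstream of the KIF1B starts at chr1:10210320-10210619 on the plus strand and KIF5B at chr10:32056376-32056675 on the minus strand.
KIF20A: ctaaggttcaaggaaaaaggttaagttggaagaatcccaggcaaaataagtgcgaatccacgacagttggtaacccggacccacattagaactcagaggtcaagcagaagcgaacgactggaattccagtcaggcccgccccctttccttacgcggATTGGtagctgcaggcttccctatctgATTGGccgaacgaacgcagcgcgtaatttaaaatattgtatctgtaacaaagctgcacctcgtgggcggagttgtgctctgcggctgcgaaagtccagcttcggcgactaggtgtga
KIF23: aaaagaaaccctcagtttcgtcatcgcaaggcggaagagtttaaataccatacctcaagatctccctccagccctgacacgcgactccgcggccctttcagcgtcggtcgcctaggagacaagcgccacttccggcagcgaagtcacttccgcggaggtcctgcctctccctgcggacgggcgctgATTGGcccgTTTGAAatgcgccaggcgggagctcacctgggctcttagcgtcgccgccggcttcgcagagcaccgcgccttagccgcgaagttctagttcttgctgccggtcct
KIF14: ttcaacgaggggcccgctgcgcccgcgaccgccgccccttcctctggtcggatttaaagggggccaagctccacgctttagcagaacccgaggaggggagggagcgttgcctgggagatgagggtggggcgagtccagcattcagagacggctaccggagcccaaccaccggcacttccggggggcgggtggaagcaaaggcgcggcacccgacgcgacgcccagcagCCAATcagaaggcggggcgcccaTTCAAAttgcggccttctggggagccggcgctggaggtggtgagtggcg
KIF18B: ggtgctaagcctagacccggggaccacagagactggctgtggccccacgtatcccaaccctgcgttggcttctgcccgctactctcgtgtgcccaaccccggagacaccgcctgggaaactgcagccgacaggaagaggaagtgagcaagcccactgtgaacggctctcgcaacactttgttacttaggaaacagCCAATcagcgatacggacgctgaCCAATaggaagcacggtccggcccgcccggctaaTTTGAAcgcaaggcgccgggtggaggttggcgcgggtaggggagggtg
KIF2C: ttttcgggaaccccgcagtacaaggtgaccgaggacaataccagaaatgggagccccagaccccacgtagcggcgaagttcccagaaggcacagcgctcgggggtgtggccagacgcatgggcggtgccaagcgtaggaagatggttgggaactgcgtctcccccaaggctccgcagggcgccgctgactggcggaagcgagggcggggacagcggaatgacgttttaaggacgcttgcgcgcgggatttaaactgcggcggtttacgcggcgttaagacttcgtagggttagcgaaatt
KIF1C: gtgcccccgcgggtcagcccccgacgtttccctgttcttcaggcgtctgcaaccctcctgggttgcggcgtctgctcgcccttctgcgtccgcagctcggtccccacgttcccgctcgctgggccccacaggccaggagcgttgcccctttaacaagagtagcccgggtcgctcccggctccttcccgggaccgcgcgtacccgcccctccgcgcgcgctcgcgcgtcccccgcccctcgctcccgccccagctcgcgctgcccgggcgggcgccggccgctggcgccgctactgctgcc
KIF1B: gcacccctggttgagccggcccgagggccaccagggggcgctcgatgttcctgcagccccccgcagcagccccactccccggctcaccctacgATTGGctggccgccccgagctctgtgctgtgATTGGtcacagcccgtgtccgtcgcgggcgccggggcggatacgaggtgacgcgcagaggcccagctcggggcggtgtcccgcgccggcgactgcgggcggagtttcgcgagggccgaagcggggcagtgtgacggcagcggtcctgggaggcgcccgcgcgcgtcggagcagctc
KIF5B: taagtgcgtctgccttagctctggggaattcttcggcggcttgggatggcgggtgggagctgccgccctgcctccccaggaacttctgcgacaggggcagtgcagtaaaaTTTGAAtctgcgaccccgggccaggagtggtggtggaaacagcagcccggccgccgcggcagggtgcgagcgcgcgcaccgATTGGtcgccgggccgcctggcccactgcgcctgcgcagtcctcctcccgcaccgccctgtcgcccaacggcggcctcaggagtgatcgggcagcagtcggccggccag

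In these sequences KIF23, KIF14 and KIF18B held CCAAT boxes followed downstream by a CHR. In KIF23 the CHR began 55 bases before the start, in KIF14 at base 2 after it and in KIF18B at base 3 after it, counting the start itself as base 1. KIF20A held 2 CCAAT boxes and no CHR of the letters searched, and KIF2C and KIF1C held neither motif. KIF1B held CCAAT boxes alone, and KIF5B held a CHR 140 bases before the start, upstream of its CCAAT box.

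The motifs were divided between the classes. A CHR was present at a listed start of 11 of 13 mitotic kinesins, of 1 of the 12 transport kinesins with a promoter (KIF5B) and of 1 of the 9 other kinesins with one (KIF24), against 17.5% of 15843 protein-coding genes and 16.4% of all 35116 promoters. A CCAAT box was present in 11 of 13 mitotic, 4 of 12 transport and 3 of 9 other kinesins, against 42.1% of protein-coding genes and 34.6% of all promoters. Both motifs stood in the same promoter in 10 of 13 mitotic kinesins, in 1 transport kinesin and in 1 other kinesin, against 7.28% of protein-coding genes and 6.38% of all promoters. The mitotic genes without a CHR were KIF20A and KIF2C, and the CHR of the other 11 began between 55 bases before the start (KIF23) and base 31 after it (KIF20B), taking the first listed start of KIF22. A match is a description of letters, not evidence of binding, and no factor was measured here.

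**Figure D1:**
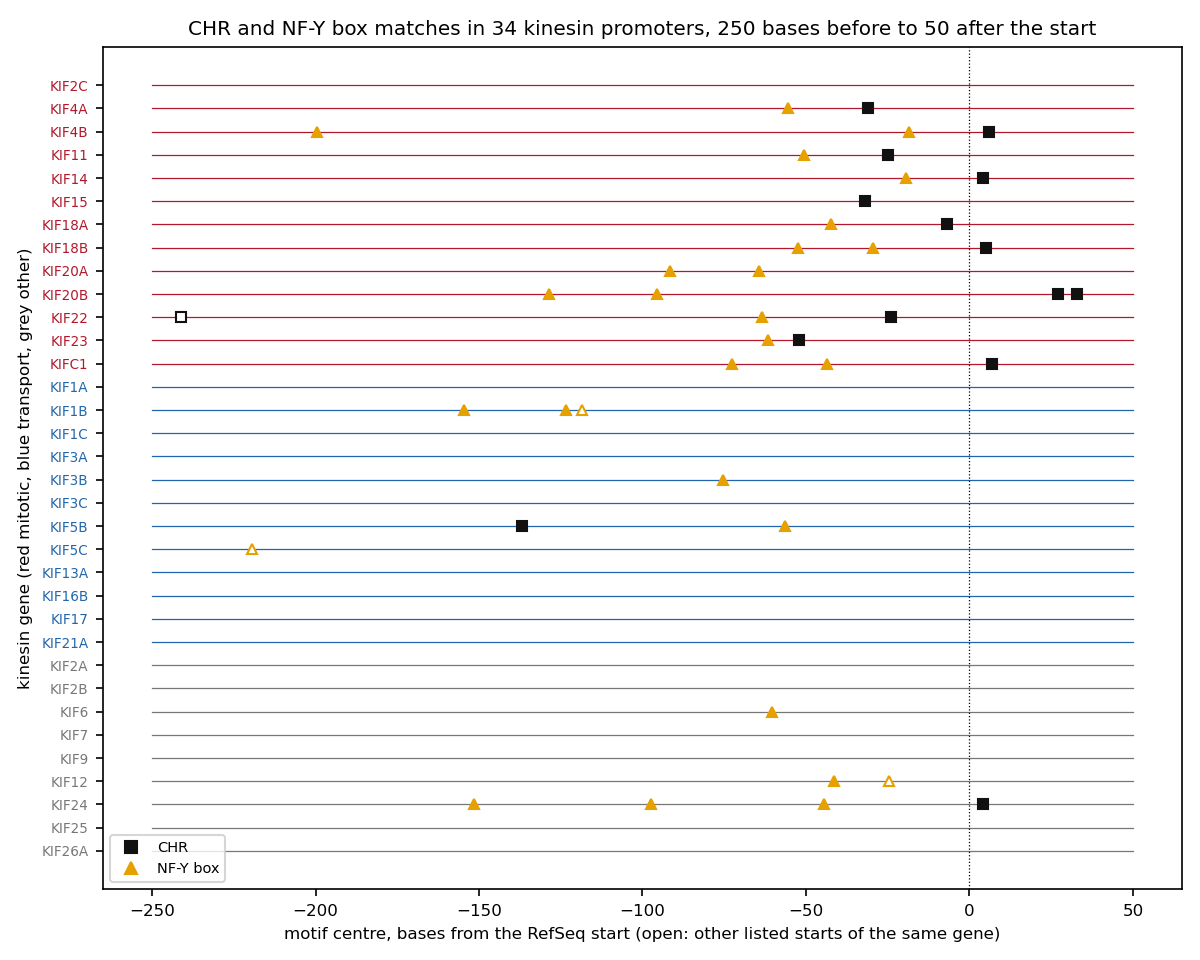
Places of the CHR (black squares) and of the CCAAT box bound by NF-Y (orange triangles, labelled NF-Y box) in the 34 kinesin promoters, by the distance of the motif centre from the RefSeq start in bases. Among the mitotic kinesins (red labels) 11 of 13 rows carry a square, against 1 of 12 transport (blue) and 1 of 9 other (grey) rows.

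Radiation lowered transcription of the mitotic kinesins as a class while most transport kinesins did not pass the test. With vehicle, 6 of 12 mitotic kinesins tested fell and none rose, while 0.353% of the 28651 genes tested fell and 0.743% rose (edgeR quasi-likelihood test, adjusted p under 0.05). Under enzalutamide, 6 of 12 fell and none rose, against 0.293% of genes that fell and 0.625% that rose. In batch 1, 8 of 11 fell, against 0.819% of the 25889 genes tested, and 2% of genes rose. With both batches without enzalutamide in 1 fit and batch as a term, 10 of 13 fell, against 1.66% of 29195 genes, and 2.39% rose. DESeq2 called 7, 7, 8 and 8 mitotic kinesins in the same order, and its share of all genes is not given here. The median log2 fold change of the mitotic kinesins was -0.51 with vehicle, -0.52 under enzalutamide, -0.65 in batch 1 and -0.57 over both batches, where the median of all genes was -0.0057, -0.0139, -0.0021 and -0.0245. With t1 alone the batch 1 median was -0.74 with 8 members lower, and with t2 alone -0.38 with 6 lower. Over both batches 7 fell with t1 alone and 6 with t2 alone, where KIF11 (t1), KIF4A, KIF18A and KIF4B (t2) and KIF22 (either) no longer passed, and KIF4B was too low to test with t1 alone. The shares of all genes that fell with t1 or t2 alone are not given here.

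All mitotic kinesins tested had a negative estimate in each of these comparisons, also those that did not pass. This holds for the class as set down, without KIF2A. With KIF2A and KIF2B added, of which KIF2B was not tested, 6 of 13, 6 of 13, 8 of 12 and 10 of 14 fell in the same order. KIF2A itself was at 0.117 with vehicle, 0.00172 under enzalutamide, -0.0281 in batch 1 and 0.0383 over both batches. The groups did not overlap, with irradiated samples lower, for 11 of 12 mitotic kinesins with vehicle (KIF15 overlapped), for 12 of 12 under enzalutamide and for 11 of 11 in batch 1. With 2 samples a group such separation is common: 22.8%, 19.5% and 19.7% of all genes tested were lower without overlap in the same comparisons. The number that passed depended on single libraries in batch 2. It was between 1 and 4 with vehicle when 1 library was left out (1 without irradiated replicate 4, 2 without vehicle replicate 3, 3 without vehicle replicate 4), and between 1 and 9 under enzalutamide (1 without irradiated replicate 3, 2 without irradiated replicate 4, 9 without enzalutamide replicate 4). With the replicate number as a block it was 8 with vehicle, 9 under enzalutamide, 10 in batch 1 and 11 over both batches, where 2.03%, 1.45%, 4.24% and 3.14% of all genes fell. Of the members called with vehicle, KIF20A passed in 4 of 4 refits that left out 1 library, KIF23, KIF14 and KIF18B in 2 of 4, and KIF2C and KIF11 in 0 of 4. Under enzalutamide KIF20A passed in 4 of 4, KIF14 in 3 of 4, KIF23 and KIF18B in 2 of 4, and KIF18A and KIF2C in 1 of 4. In batch 1 the 7 members other than KIF11 (1 of 4) passed in 4 of 4.

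**Figure D2:**
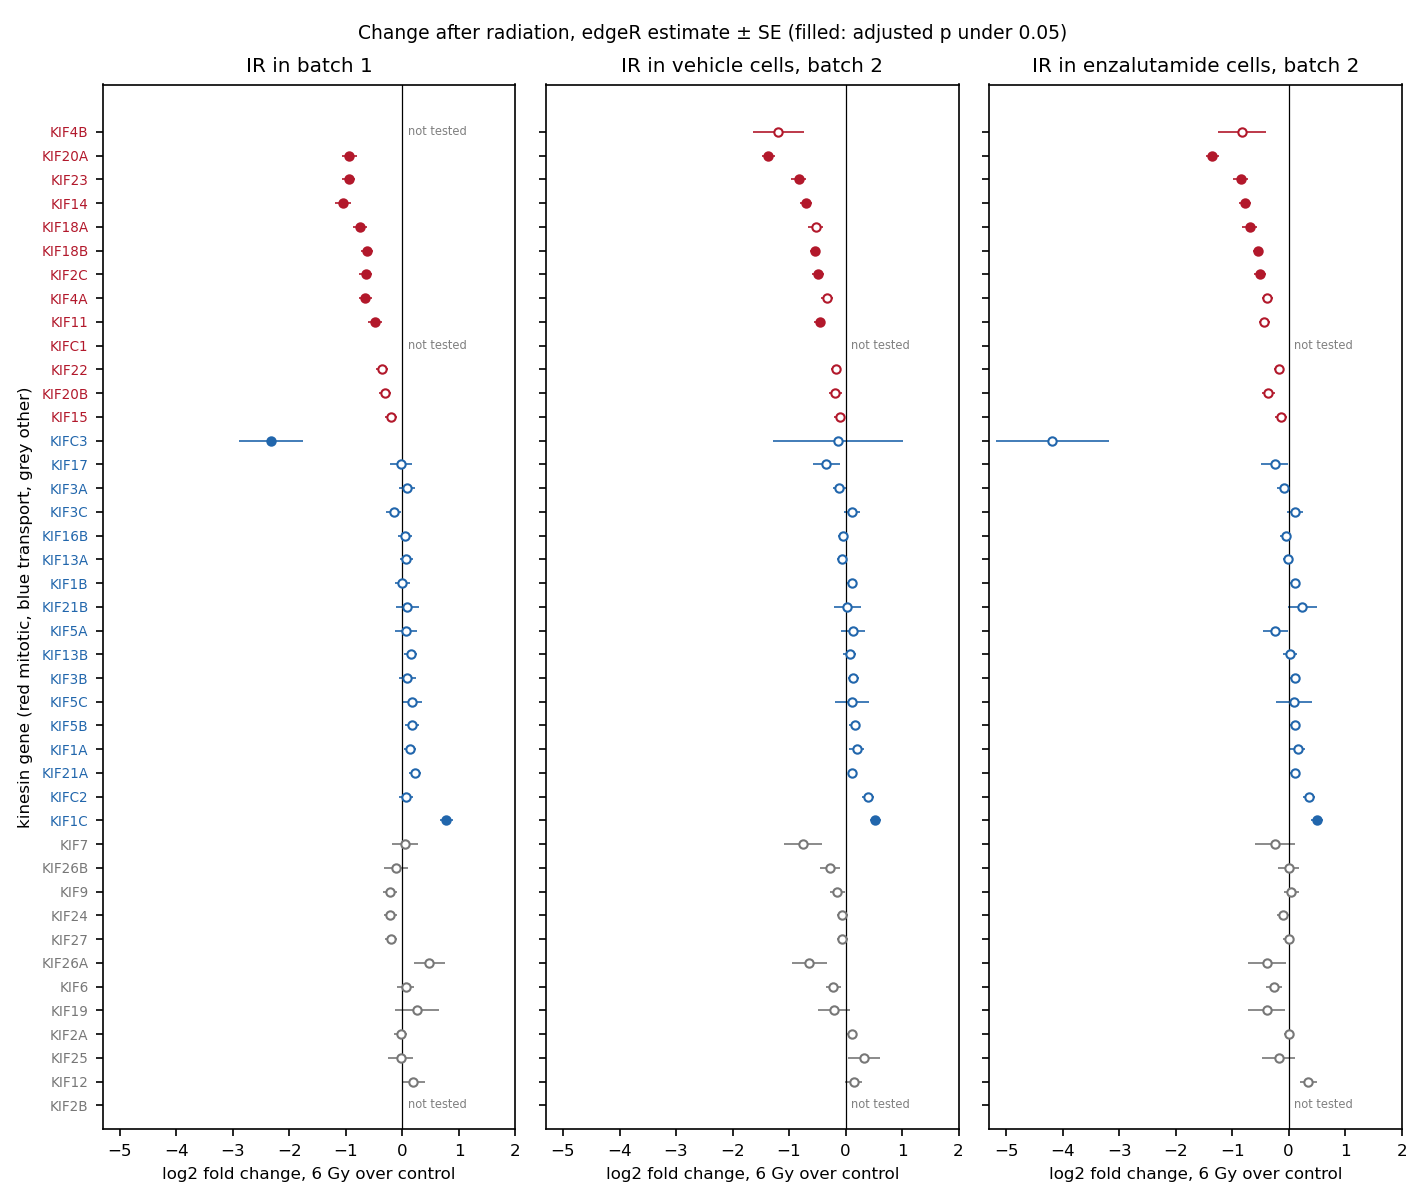
Log2 fold change after 6 Gy over the matching control for the 42 kinesins (vertical axis, ordered within a class by the fit over both batches), with SE as bars; filled points passed the test. Red points of the mitotic class lie left of 0 in the 3 panels, while blue transport points gather at 0 apart from KIF1C on the right and KIFC3 with its wide bars.

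KIF20A, also called MKLP2, brings the chromosomal passenger complex to the central spindle at anaphase. It measured 39.8 and 39.2 CPM with vehicle and 15.9 and 14.7 CPM after vehicle and 6 Gy. Under enzalutamide it measured 39.6 and 34 CPM without and 14.4 and 14.7 CPM with radiation, and in batch 1 59.6 and 47.9 CPM in mock and 29.1 and 27.0 CPM in irradiated samples. In each of the 3 sets both irradiated samples lay below both controls. In edgeR's test KIF20A fell by 1.37 (SE 0.117, adjusted p = 2.44e-05) with vehicle, by 1.35 (SE 0.119, adjusted p = 3.72e-05) under enzalutamide and by 0.94 (SE 0.125, adjusted p = 0.000709) in batch 1 on the log2 scale. In percent it fell by 61.3%, fell by 60.6% and fell by 47.8%. It was the largest decrease of any kinesin that passed in both batch 2 comparisons, and it passed without any 1 library. In batch 1 the estimate was -0.61 with t1 alone (adjusted p = 0.0114 in edgeR) and -1.28 with t2 alone (adjusted p = 9.5e-06).

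KIF20A spans 8.61 kb at chr5:138179112-138187723 and was among the densest kinesins, with 4.59 CPM per kb of gene span in vehicle cells. CDC23, an anaphase-promoting complex subunit, overlaps it, and BRD8 ends or begins 482 bases away. CDC23 had estimates of -0.02 (SE 0.0957), 0.00 (SE 0.0968) and -0.08 (SE 0.11) in the same 3 comparisons and did not pass. BRD8 did not pass in these comparisons and fell by 0.25 (SE 0.0683, edgeR adjusted p = 0.0446) over both batches. Whether counting used strand is not given in the sources used here, so reads in the stretch shared with CDC23 cannot be told apart.

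KIF23, or MKLP1, is the motor of the centralspindlin complex that organizes the cleavage site. Its levels were 68.2 and 60.6 CPM with vehicle, 41.0 and 31.3 CPM with vehicle and 6 Gy, 67.1 and 57.3 CPM with enzalutamide and 33.6 and 35.5 CPM with enzalutamide and 6 Gy. In batch 1 they were 38.0 and 40.2 CPM in mock and 20.5 and 20.0 CPM in irradiated samples, and no irradiated sample overlapped its controls. KIF23 fell by 0.83 (SE 0.128), 0.85 (SE 0.13) and 0.95 (SE 0.115) on the log2 scale with vehicle, under enzalutamide and in batch 1, with edgeR adjusted p-values of 0.00407, 0.00436 and 0.000322. The antisense gene KIF23-AS1 shares its place and fell by 0.74 (SE 0.138, adjusted p = 0.00198) over both batches, and the reads of the pair cannot be separated without strand. In batch 1 KIF23 was at -1.16 with t1 alone and -0.67 with t2 alone.

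KIF14, which works with citron kinase at the midbody, measured 48.1 and 43.7 CPM with vehicle and 30.4 and 25.9 CPM with vehicle and 6 Gy. Under enzalutamide its levels were 50.6 and 46.9 CPM, and 27.9 and 29.1 CPM with radiation, and in batch 1 28.9 and 32.1 CPM in mock and 12.7 and 16.6 CPM in irradiated samples. The irradiated samples lay below their controls in each of the 3 sets. KIF14 fell by 0.70 (SE 0.109, adjusted p = 0.00424), 0.78 (SE 0.11, adjusted p = 0.0024) and 1.05 (SE 0.148, adjusted p = 0.00118) in edgeR's test. In batch 1 the decrease was in the t1 libraries (-1.73, adjusted p = 4.54e-06) more than in the t2 libraries (-0.36, adjusted p = 0.105).

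**Figure D3:**
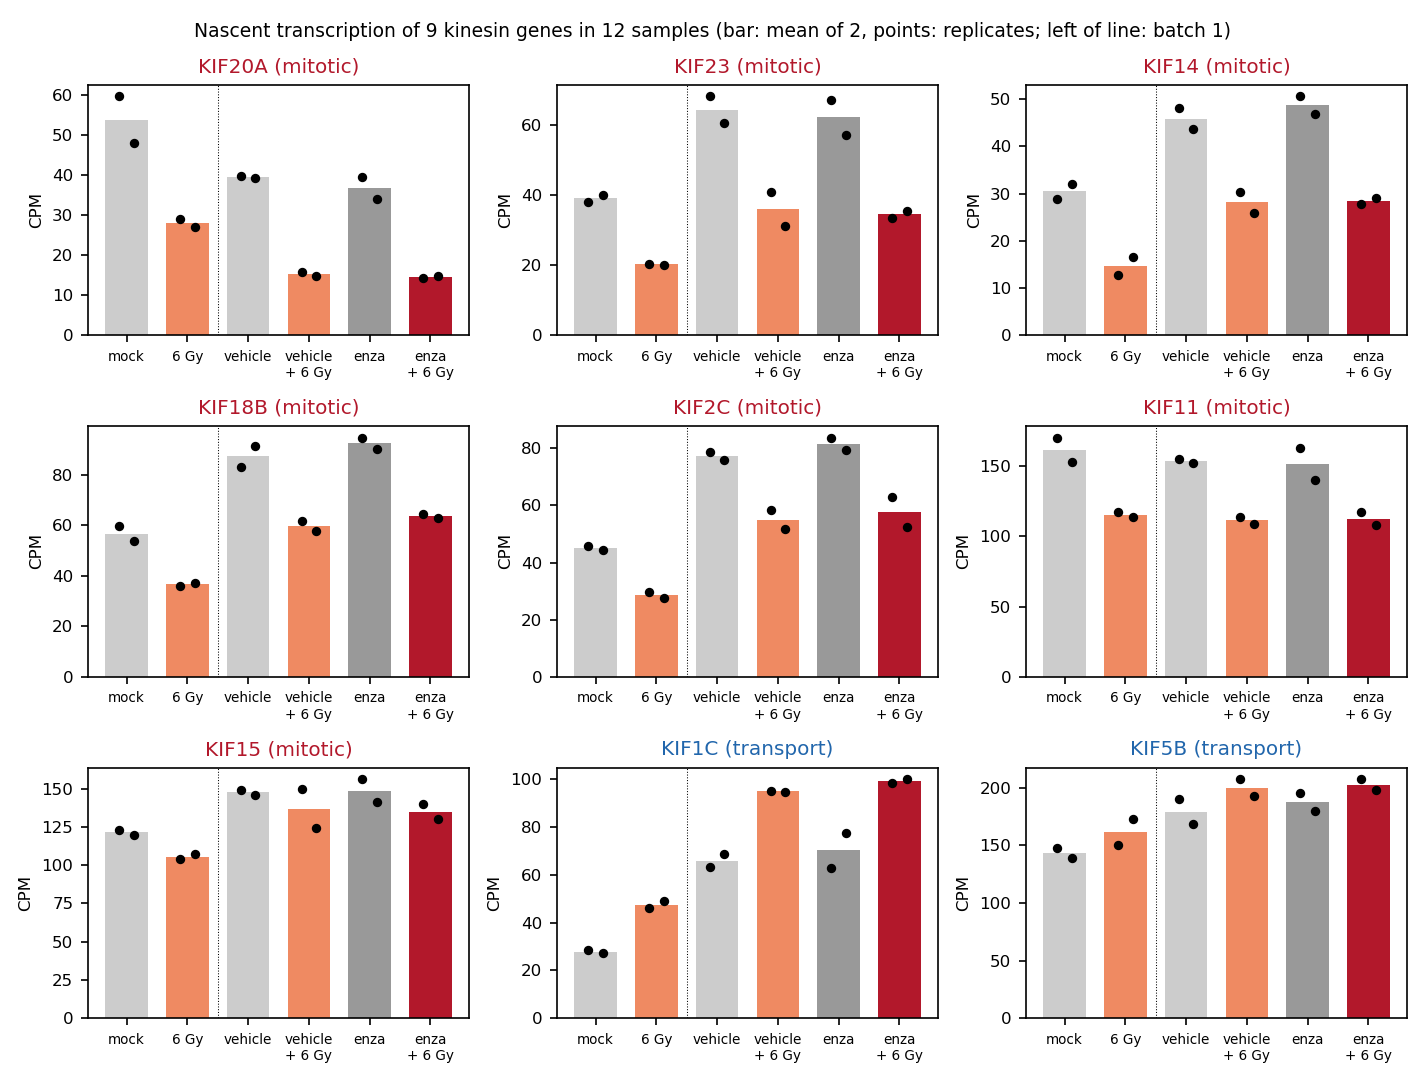
CPM of 9 kinesins (one panel each, linear axes from 0) in the 6 groups, with the mean of 2 samples as a bar and the samples as points; batch 1 stands left of the dotted line. KIF20A goes from 39.8 and 39.2 CPM to 15.9 and 14.7 CPM with radiation, KIF15 stays near its controls, and KIF1C is higher in every irradiated group.

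KIF4A and KIF4B are chromokinesins, and KIF4A sets the length of the central spindle with PRC1. KIF4A measured 103 and 96.1 CPM with vehicle, 85.4 and 72.8 CPM with vehicle and 6 Gy, 111 and 97.9 CPM with enzalutamide and 81.5 and 80.3 CPM with enzalutamide and 6 Gy. Batch 1 had 61.0 and 70.6 CPM in mock and 39.9 and 43.7 CPM in irradiated samples. Groups did not overlap, but the estimates of -0.33 (SE 0.1) with vehicle and -0.38 (SE 0.101) under enzalutamide did not pass (edgeR adjusted p = 0.213 and 0.168), and passed with the replicate block (adjusted p = 0.0058 and 0.0026). In batch 1 KIF4A fell by 0.65 (SE 0.112, edgeR adjusted p = 0.00505), with -1.21 from t1 alone and -0.03 from t2 alone (adjusted p = 0.837).

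KIF4B is a near-identical intronless copy of KIF4A, so the reads of the pair may be split between them and its values are uncertain. It measured 0.419 to 1.88 CPM in batch 1 and 0.31 to 1.08 CPM in batch 2. Only the fit over both batches called it, with a decrease of 1.30 (SE 0.356, edgeR adjusted p = 0.0429), which was the lowest estimate of the mitotic class. It passed in 2 of the 8 refits that left out 1 sample.

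Of the 2 motors that push spindle poles apart, KIF11 changed and KIF15 did not pass. KIF11, or Eg5, is the target of several spindle poisons. It measured 155 and 152 CPM with vehicle, 114 and 109 CPM with vehicle and 6 Gy, 163 and 140 CPM with enzalutamide and 117 and 108 CPM with enzalutamide and 6 Gy. Batch 1 had 170 and 153 CPM in mock and 117 and 114 CPM in irradiated samples, with no overlap in any set. It fell by 0.46 (SE 0.0935, edgeR adjusted p = 0.0321) with vehicle and by 0.49 (SE 0.119, adjusted p = 0.0495) in batch 1. With t1 alone the batch 1 call was lost (-0.27, edgeR adjusted p = 0.258), and with t2 alone the estimate was -0.70 (adjusted p = 0.000357). Under enzalutamide the estimate was -0.43 (SE 0.0938, edgeR adjusted p = 0.0557, and 0.00039 with the replicate block).

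KIF15, which backs up KIF11 at the spindle, had the estimate nearest to 0 among the mitotic kinesins. Its levels were 149 and 146 CPM with vehicle against 150 and 124 CPM with vehicle and 6 Gy, and 156 and 141 CPM with enzalutamide against 140 and 130 CPM with enzalutamide and 6 Gy. In batch 1 they were 123 and 120 CPM in mock and 104 and 107 CPM in irradiated samples. With vehicle the groups overlapped, and the fit over both batches gave -0.16 (SE 0.0742, edgeR adjusted p = 0.284).

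KIF2C, or MCAK, a kinesin-13 depolymerase that corrects faulty attachments at centromeres, measured 78.7 and 75.8 CPM with vehicle, 58.5 and 51.6 CPM with vehicle and 6 Gy, 83.6 and 79.4 CPM with enzalutamide and 62.9 and 52.6 CPM with enzalutamide and 6 Gy. Mock samples of batch 1 had 45.8 and 44.5 CPM and irradiated ones 29.8 and 27.6 CPM. Irradiated samples lay below controls in each set, and KIF2C fell by 0.49 (SE 0.103), 0.50 (SE 0.104) and 0.65 (SE 0.109), with edgeR adjusted p-values of 0.0409, 0.0396 and 0.00431. Its batch 1 estimate was -0.85 with t1 alone and -0.38 with t2 alone (edgeR adjusted p = 0.000803 and 0.0361). Its kinesin-13 relative KIF2A, counted among the other kinesins, did not pass, with 106 and 99.9 CPM with vehicle and 117 and 105 CPM after radiation.

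KIF18B, a kinesin-8 that works with KIF2C on astral microtubules, measured 83.2 and 91.6 CPM with vehicle, 61.8 and 57.9 CPM with vehicle and 6 Gy, 94.6 and 90.2 CPM with enzalutamide and 64.6 and 62.8 CPM with enzalutamide and 6 Gy. Batch 1 had 59.9 and 53.6 CPM in mock and 36.1 and 37.1 CPM in irradiated samples. No irradiated sample reached its controls. KIF18B fell by 0.55 (SE 0.0886), 0.54 (SE 0.0889) and 0.63 (SE 0.107), with edgeR adjusted p-values of 0.00593, 0.00826 and 0.00486. In batch 1 t1 alone gave -0.74 and t2 alone -0.52.

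KIF18A, the kinesin-8 that dampens chromosome oscillation at metaphase, measured 44.5 and 39.6 CPM with vehicle, 32.3 and 25.8 CPM with vehicle and 6 Gy, 45.9 and 38.7 CPM with enzalutamide and 26.3 and 26.3 CPM with enzalutamide and 6 Gy. Batch 1 had 34.3 and 40.2 CPM in mock and 20.5 and 23.6 CPM in irradiated samples, again without overlap. It fell by 0.69 (SE 0.13, edgeR adjusted p = 0.0205) under enzalutamide and by 0.75 (SE 0.129, adjusted p = 0.00505) in batch 1. The estimate of -0.53 (SE 0.128) with vehicle had an edgeR adjusted p of 0.0835, and of 0.000417 with the replicate block. In batch 1 the estimate was -1.25 with t1 alone and -0.23 with t2 alone (adjusted p = 0.229).

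KIF22, or Kid, a chromokinesin that pushes chromosome arms from the poles, measured 73.1 and 70.0 CPM with vehicle, 63.5 and 63.2 CPM with vehicle and 6 Gy, 69.5 and 74.6 CPM with enzalutamide and 65.0 and 63.3 CPM with enzalutamide and 6 Gy. Batch 1 had 91.5 and 87.8 CPM in mock and 71.3 and 68.5 CPM in irradiated samples. The separation was complete and small, and KIF22 passed only in the fit over both batches, with a decrease of 0.28 (SE 0.07, edgeR adjusted p = 0.0251). DESeq2 gave it an adjusted p of 0.0613 there, and it passed in 2 of the 8 refits that left out 1 sample. With the replicate block it also passed in batch 1 (edgeR adjusted p = 0.000407), as it did with t2 alone (-0.60, adjusted p = 0.000655) but not with t1 alone (-0.17, adjusted p = 0.453). KIF20B, a kinesin-6 relative of KIF20A, did not pass, with -0.25 (SE 0.0767, edgeR adjusted p = 0.0811) over both batches, and passed there with the block (0.0226). Its estimates of -0.36 (SE 0.116) under enzalutamide and -0.30 (SE 0.104) in batch 1 had edgeR adjusted p-values of 0.308 and 0.214, and of 0.0147 and 0.0122 with the block.

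KIFC1 is the minus-end motor that clusters centrosomes and is usually active in dividing cells. It was almost absent, at 0 to 0.75 CPM in the 12 samples, and was tested only in the fits that hold both batches. It passed neither over both batches (-0.37, SE 0.559, edgeR adjusted p = 0.804) nor in the difference between batches. Some of its neighbours on chromosome 6 were low as well. Of the 10 protein-coding genes on either side, 4 on each side stayed under 2 CPM in every sample, among them RPS18, B3GALT4 and PFDN6, listed at 0 throughout, and PHF1, 516 bases away, at or below 0.324 CPM. The share of all protein-coding genes at such levels is not given here. Most of these neighbours were not that low, such as TAPBP (5.81 to 9.36 CPM), BAK1 (13.5 to 27 CPM), ITPR3 (31.8 to 66.7 CPM) and UQCC2 (75.5 to 111 CPM). MLN, which lies farther away than these, stayed at or below 0.474 CPM. No statement on KIFC1 transcription is made from these values, and their cause was not tested.

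The order of the mitotic kinesins was alike in contrasts that share no library. Across 12 mitotic kinesins the log2 fold changes with vehicle and under enzalutamide had a Pearson correlation of 0.944 and a Spearman correlation of 0.986, and across 11 of them those with vehicle and in batch 1 had 0.823 and 0.864. For the 17 transport kinesins the Spearman values were 0.725 and 0.505. Genes are not independent samples, and low genes share a wide error in both contrasts, so these are descriptions.

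Of 6 mitotic kinesins under 30 kb tested over both batches 5 fell, of 5 between 30 and 100 kb 4 fell, and of 2 over 100 kb 1 fell (KIF4A, with KIF15 not passing, and KIF4A at -0.20 with t2 alone, edgeR adjusted p = 0.244), where 2.24%, 1.89% and 1.31% of protein-coding genes of those spans fell. Of the 2 over 100 kb, 0 passed with vehicle and 0 under enzalutamide. Medians of protein-coding genes were 0.02, 0.01 and -0.04 in the same order. Mitotic kinesins had a median span of 34.1 kb and a median level of 1.38 CPM per kb in vehicle cells, against 57.4 kb and 0.429 CPM per kb for transport kinesins and 51.1 kb and 0.07 CPM per kb for the others. The densest were KIF22 (4.89 CPM per kb), KIF20A (4.59), KIF18B (3.79), KIF5B (3.78) and KIFC2 (3.65). KIF26B at 0.0143 and KIFC1 at 0.0156 CPM per kb were the lowest.

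Most listed partners of the mitotic kinesins fell as well. Their list was chosen with earlier results of these data known, so its counts describe the list and are no further support for the class. CENPE, the kinesin-7 that carries chromosomes to the spindle equator and whose symbol lies outside the KIF naming, measured 78.2 and 72.2 CPM with vehicle, 39.7 and 30.3 CPM with vehicle and 6 Gy, 83.0 and 67.9 CPM with enzalutamide and 37.1 and 39.6 CPM with enzalutamide and 6 Gy. In batch 1 it measured 52.9 and 58.1 CPM in mock and 19.7 and 23.4 CPM in irradiated samples. No groups overlapped, and it fell by 1.10 (SE 0.131), 0.98 (SE 0.131) and 1.36 (SE 0.121), with edgeR adjusted p-values of 0.000471, 0.00145 and 2.65e-05. The 16 listed partners included the passenger complex, centralspindlin and the spindle kinases. Of them 11 fell with vehicle, 12 under enzalutamide, 13 in batch 1 and 13 over both batches. Of all genes tested, 0.353%, 0.293%, 0.819% and 1.66% fell in the same order. The partner medians were -0.63, -0.63, -0.93 and -0.81. No partner passed as higher, and 1 of the 16 had a positive estimate in each comparison (0.219, 0.0136, 0.118 and 0.155). Over both batches AURKA, the kinase activated by TPX2, fell by 1.47 (SE 0.101), PLK1, a kinase that acts on several of these motors, by 1.25 (SE 0.0976) and TPX2 by 0.84 (SE 0.0694), with edgeR adjusted p-values of 5.3e-09, 2.74e-08 and 5.95e-08.

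Of 16 kinesin light chains, cargo adaptors and related genes, none passed in the 4 comparisons (1, 3, 0 and 4 at an unadjusted p under 0.05), with medians of 0.09, 0.06, 0.05 and 0.04. Of all genes, 3161 of 28651, 2720 of 28651, 2969 of 25889 and 4714 of 29195 had such an unadjusted p in edgeR, in the same order. With the replicate block MADD, an adaptor of kinesin-3 motors, passed as higher with vehicle (0.25, edgeR adjusted p = 0.0444) and under enzalutamide (0.26, adjusted p = 0.0491), and RHOT2, a mitochondrial adaptor, under enzalutamide (0.37, adjusted p = 0.0311). With the block 2.56% of all genes rose with vehicle and 1.87% under enzalutamide. Of 18 genes of dynein and dynactin, the motor that walks the other way, 1 passed: DYNC1I2, an intermediate chain, rose by 0.33 (SE 0.087, edgeR adjusted p = 0.0329) over both batches. In that fit 2.39% of all genes rose. With the block DYNC1I2 also passed in batch 1 (0.50, adjusted p = 0.000223), and DCTN5, a dynactin subunit, passed as higher under enzalutamide (0.28), in batch 1 (0.30) and over both batches (0.25), with edgeR adjusted p-values of 0.0497, 0.0109 and 0.0176. Among all genes, 1234 of 25889 rose with the block in batch 1 and 1038 of 29195 over both batches.

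Among the 17 transport kinesins, KIF1C alone rose, in each comparison of radiation. KIF1C is a kinesin-3 that carries dense-core vesicles and integrins. It measured 63.1 and 68.7 CPM with vehicle, 95.0 and 94.7 CPM with vehicle and 6 Gy, 63.0 and 77.4 CPM with enzalutamide and 98.2 and 99.8 CPM with enzalutamide and 6 Gy. In batch 1 it measured 28.4 and 27.2 CPM in mock and 45.9 and 49.2 CPM in irradiated samples. Irradiated samples lay above their controls in each set. In edgeR's test KIF1C rose by 0.52 (SE 0.101, adjusted p = 0.0222) with vehicle, 0.50 (SE 0.102, adjusted p = 0.0353) under enzalutamide and 0.78 (SE 0.11, adjusted p = 0.00118) in batch 1, increases of 43.9%, 41.6% and 71.3%. Over both batches the rise was 0.63 (SE 0.0748, adjusted p = 1.07e-05).

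The batch 2 calls of KIF1C changed with scaling and with single libraries. With vehicle it did not pass with library totals in place of TMM, which gave the largest edgeR adjusted p of the alternatives that kept all libraries, 0.0557. Under enzalutamide it passed neither with library totals nor in a fit of the compared groups alone, which gave the largest, 0.123. With 1 library left out it passed in 0 of 4 refits with vehicle and in 1 of 4 under enzalutamide, the one without enzalutamide replicate 4. In batch 1 it passed in each alternative, with 0.45 from t1 alone and 1.19 from t2 alone. INCA1, which lies 428 bases away, had 0.08 (SE 0.115, edgeR adjusted p = 0.807) over both batches, and KIF1C-AS1 was too low to test.

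KIFC3, a minus-end kinesin of epithelial junctions, had the lowest estimate of the transport class under enzalutamide, in batch 1 and over both batches, with 2 samples far above the other 10. It measured 10.3 and 71.8 CPM in mock and 7.97 and 8.50 CPM in irradiated batch 1 samples, and 609 of the reads of mock replicate 2 were in its t1 library (116 CPM, with 6.74 to 12.3 CPM in the other 7 libraries). In batch 2 it measured 6.38 and 6.43 CPM with vehicle, 4.91 and 6.90 CPM with vehicle and 6 Gy, 216 and 5.65 CPM with enzalutamide and 5.35 and 7.08 CPM with enzalutamide and 6 Gy. Apart from those 2 samples KIFC3 stayed between 4.91 and 10.3 CPM. In batch 1 edgeR called it lower (-2.33, SE 0.568, adjusted p = 0.0499), DESeq2 did not (adjusted p = 0.74), and without mock replicate 2 the estimate was -0.31 (edgeR adjusted p = 0.545). Under enzalutamide it was -4.18 (SE 1, edgeR adjusted p = 0.0995, and 0.000713 with the replicate block), and 0.15 without enzalutamide replicate 3. Over both batches it was -1.42 (SE 0.44, edgeR adjusted p = 0.0833). With t2 alone, which leaves out the high t1 library, batch 1 gave -0.81 (edgeR adjusted p = 0.00928), and t1 alone gave -2.72 (adjusted p = 0.00372). With vehicle KIFC3 was at -0.13 (SE 1.15) and the lowest estimate of the class belonged to KIF17, a motor of dendritic transport, at -0.34 (SE 0.239, adjusted p = 0.613).

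The other 15 transport kinesins did not pass in the 4 comparisons. In all, 1 of 17 passed with vehicle, 1 under enzalutamide, 2 in batch 1 and 1 over both batches, and the class medians were 0.12, 0.10, 0.09 and 0.09. In batch 1, 5 transport kinesins passed with t1 alone and 6 with t2 alone, counting either direction. The share of all genes that passed in those fits is not given here, so these counts cannot be read as particular to the class. The libraries could differ in direction. KIF1B went from 148 and 193 CPM in mock to 120 and 116 CPM in irradiated t1 libraries. In the t2 libraries it went from 119 and 119 CPM to 167 and 187 CPM. The highest levels of the class belonged to KIF1B, which carries mitochondria and synaptic vesicle precursors, at 215 and 223 CPM with vehicle and 242 and 234 CPM after radiation, and to KIF5B, the conventional kinesin heavy chain of most tissues, at 190 and 168 CPM and 207 and 193 CPM. In both, irradiated samples lay above their controls, with estimates of 0.12 (SE 0.0859) and 0.16 (SE 0.0925) that did not pass. KIFC2 measured 28.3 and 31.3 CPM with vehicle and 38.3 and 39.9 CPM after radiation, with an estimate of 0.39 (SE 0.104, edgeR adjusted p = 0.127) that passed with the replicate block (0.00662), as it did under enzalutamide (0.36, SE 0.105, edgeR adjusted p = 0.223 without and 0.0216 with the block). With the block 2.56% and 1.87% of all genes rose in these comparisons. In batch 1 KIFC2 was at 34.1 and 28.8 CPM in mock and 32.8 and 32.9 CPM in irradiated samples, with an estimate of 0.07. With vehicle, 7 transport kinesins were higher without overlap and 2 lower, where 21.8% and 22.8% of all genes were.

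Summed over the class in each sample, the split was visible without any test of single genes. The 13 mitotic kinesins summed to 924 and 883 CPM with vehicle, 721 and 640 CPM with vehicle and 6 Gy, 967 and 869 CPM with enzalutamide and 693 and 664 CPM with enzalutamide and 6 Gy, and in batch 1 to 766 and 744 CPM in mock and 523 and 530 CPM in irradiated samples. No sum of an irradiated sample reached its controls. Transport kinesins without KIFC3 summed to 1048 and 1068 CPM with vehicle and 1175 and 1149 CPM after radiation, to 1080 and 1078 CPM and 1152 and 1196 CPM with enzalutamide, and in batch 1 to 723 and 773 CPM and 795 and 847 CPM. The ratio of the mitotic to this transport sum was 0.882 and 0.827 with vehicle, 0.614 and 0.556 with vehicle and 6 Gy, 0.895 and 0.806 with enzalutamide and 0.602 and 0.555 with enzalutamide and 6 Gy. In batch 1 it was 1.06 and 0.962 in mock and 0.658 and 0.626 in irradiated samples. With KIFC3 in the sum, enzalutamide replicate 3 had a ratio of 0.746 and mock replicate 2 of 0.881, still above the irradiated samples.

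**Figure D4:**
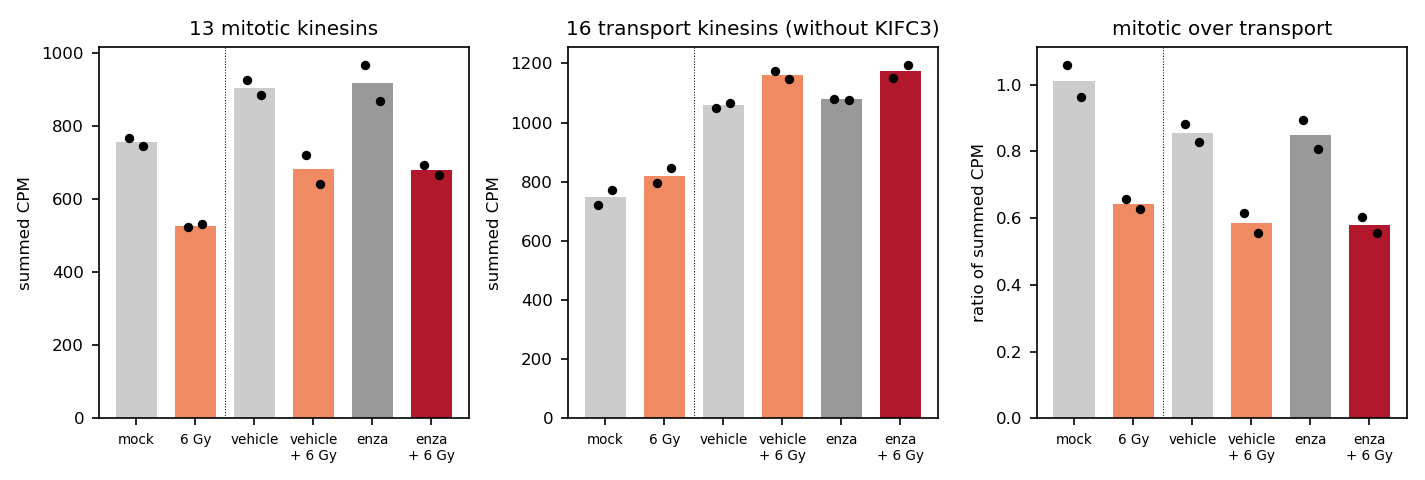
Summed CPM of the mitotic kinesins (left), of the transport kinesins without KIFC3 (middle) and their ratio (right) in the 6 groups, with means as bars and the 2 samples as points. The ratio lies between 0.806 and 1.06 in unirradiated samples and between 0.555 and 0.658 in irradiated ones.

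None of the 11 other kinesins tested passed in any comparison of radiation with edgeR or DESeq2 (1, 1, 0 and 1 at an unadjusted p under 0.05). Among all genes 3161 of 28651, 2720 of 28651, 2969 of 25889 and 4714 of 29195 reached that unadjusted p in edgeR. In batch 1, however, 1 passed with t1 alone and 3 with t2 alone, in fits whose share of all genes is not given here. KIF2B, a kinesin-13 gene, had at most 0.154 CPM and was not tested. KIF12 had the highest estimate over both batches, 0.16 (SE 0.123), from 10.7 and 9.37 CPM with vehicle to 11.5 and 10.7 CPM after radiation, 10.5 and 9.55 CPM to 13 and 12.7 CPM under enzalutamide, and 7.25 and 5.93 CPM to 7.18 and 7.79 CPM in batch 1. Its groups overlapped except under enzalutamide. KIF7, the ciliary regulator of hedgehog signalling, had the lowest, -0.29 (SE 0.205), from 1.99 and 2.52 CPM to 1.16 and 1.55 CPM with vehicle, 1.37 and 2.41 CPM to 1.54 and 1.5 CPM under enzalutamide, and 4.38 and 4.28 CPM to 4.50 and 4.43 CPM in batch 1. Its sets did not point one way. TICRR, a replication gene that overlaps KIF7, fell by 0.46 (SE 0.0778, edgeR adjusted p = 0.000638) over both batches.

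Enzalutamide moved no kinesin past the test. Without radiation 0 of 40 kinesins tested passed with edgeR or DESeq2 (2 at an unadjusted p under 0.05), with radiation 0 (0), and averaged over radiation 0 (4), where 0.0105%, 0.0105% and 0.0628% of all genes passed. The unadjusted p in edgeR was under 0.05 for 734, 859 and 1780 of all 28651 genes tested. The medians of the mitotic class were 0.03, 0.02 and 0.01. With the replicate block KIFC3 passed without radiation (3.59, SE 0.618, edgeR adjusted p = 0.00446), with 216 CPM in replicate 3 and 5.65 CPM in replicate 4. KIF5C, a neuronal conventional kinesin, passed with the block averaged over radiation (-0.47, SE 0.0989, adjusted p = 0.0184). With the block 0.192% and 0.949% of all genes passed in these comparisons. KIF20A differed by -0.10 (SE 0.109) without radiation and KIF1C by 0.08 (SE 0.102).

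The response of the kinesins to radiation did not pass as different between vehicle and enzalutamide. In the interaction, 0 of 40 passed with edgeR or DESeq2 (1 at an unadjusted p under 0.05, KIFC3), as 0% of all genes did, and the median of the mitotic class was -0.02. Of all genes, 343 of 28651 had an unadjusted p under 0.05 there in edgeR. Between batch 1 and batch 2 with vehicle, 0 of 41 passed with either tool (5 at an unadjusted p under 0.05), against 0.106% of all genes. An unadjusted p under 0.05 in edgeR was reached by 1651 of all 29195 genes. The median of the mitotic class for batch 1 minus batch 2 was -0.15. KIF20A was at 0.41 (SE 0.17) and KIF4A at -0.35 (SE 0.158), with edgeR adjusted p-values of 0.836 and 0.868. With t2 alone the KIF4A difference was 0.30. A p that misses the threshold does not show that responses were equal.

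**Figure D5:**
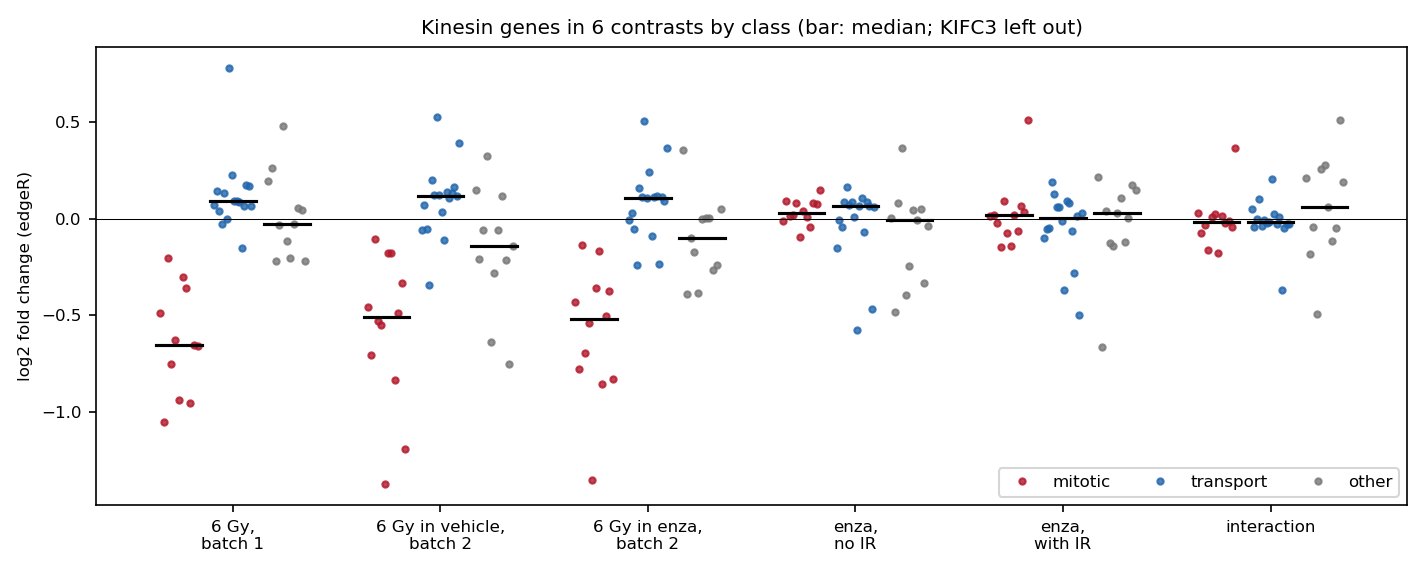
Log2 fold changes of single kinesins (points) and class medians (black bars) in 6 contrasts, with mitotic kinesins in red, transport in blue without KIFC3 and other kinesins in grey. Medians of the mitotic class are -0.65, -0.51 and -0.52 in the 3 contrasts of radiation and 0.03, 0.02 and -0.02 in the contrasts of enzalutamide and the interaction.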

How the data were processed

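The deposited tables hold raw counts per gene identifier, 1 table a batch, for 16 libraries. The submitters' processing notes name cutadapt 1.8.1, Bowtie2 2.4.4, SAMtools 1.9 and build hg38. The counting tool, annotation release and the handling of strand and duplicates are not given in the sources used here. Names were matched for 60463 of 60605 identifiers, and gene coordinates and promoters are RefSeq's for GRCh38.p14.

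Libraries t1 and t2 of a batch 1 replicate were summed, giving 12 samples. Counts were filtered by filterByExpr, scaled by TMM and tested with the quasi-likelihood test of edgeR 4.0.16 in R 4.3.3, with Benjamini-Hochberg adjustment over all genes tested and a threshold of 0.05. Fits covered the 4 groups of batch 2, batch 1, and both batches without enzalutamide with batch as a term. The SE is the log2 fold change over the square root of F. Counting depth limits genes near 1 CPM. The fits were tested on simulated data.

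Deviations from the group means were compared between samples of the same replicate number. The correlation was 0.1979 in batch 1 and 0.1025 to 0.2615 in batch 2. The numbers are taken from the labels, and the main fits hold no replicate term. The replicate block, which treats the numbers as a pairing, was fitted as an alternative. Each comparison within a batch holds only 2 such pairs. Other alternatives were RLE factors, library totals, no filter, DESeq2 1.42.0, fits of the compared groups alone, t1 or t2 alone and each sample left out.

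All kinesins are accounted for. Sample values are given for those past the threshold in a comparison of radiation and for the highest and lowest of each class. Members, classes and lists were chosen with earlier results of these data known.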

Additional observations from a re-analysis of the deposited data

How the results depend on the processing

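Mitotic counts and medians kept their direction in each alternative of the comparisons of radiation. Leaving out 1 sample gave 1 to 4 mitotic kinesins lower with vehicle, 1 to 9 under enzalutamide, 7 to 9 in batch 1 and 8 to 11 over both batches. The mitotic median then ranged from -0.606 to -0.477 under enzalutamide, -0.0473 to 0.116 for enzalutamide without radiation, -0.0835 to 0.131 with it and -0.297 to -0.0639 for the difference between batches. Transport kinesins called ranged from 0 to 0 with vehicle, 0 to 2 under enzalutamide, 0 to 1 for enzalutamide without radiation, the interaction and the difference between batches, 1 to 2 in batch 1 and 1 to 3 over both. The transport median ranged from 0.0553 to 0.14 with vehicle and from 0.0567 to 0.139 in batch 1.

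With library totals the transport calls were 0 with vehicle, 0 under enzalutamide and 1 in batch 1, where DESeq2 also gave 1. Without a filter they were 2 under enzalutamide, 1 for enzalutamide without radiation, 2 averaged, 1 in the interaction, 2 over both batches (median 0.131) and 1 in the difference. RLE factors gave 2 over both batches, and a fit of the compared groups alone 0 under enzalutamide. With the replicate block transport calls were 2 with vehicle, 3 under enzalutamide, 1 without radiation (KIFC3) and 1 averaged (KIF5C). The block changed no other call of a kinesin, or of a transport or dynein partner with radiation, than those given beside their results.

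With t1 alone batch 1 had 5 transport and 1 other call and a mitotic median of -0.742. With t2 alone it had 6 and 3, with medians of -0.381 (mitotic) and 0.046 (transport). The share of all genes called with t1 or t2 alone is not given here. Over both batches t1 gave 2 transport calls and a mitotic median of -0.671, and t2 6 mitotic calls. In the difference t1 gave 2 mitotic calls and a median of -0.362, and t2 1 mitotic call, 5 transport calls and a median of 0.105. With 1 sample left out KIFC3 ranged from -0.386 to 0.109 with vehicle (highest without irradiated replicate 3) and from -5.11 to 0.147 under enzalutamide (highest without enzalutamide replicate 3), and KIF4A in the difference was at 0.303 with t2 alone. The cause was not tested. Levels per kb by transcript or coding length were not run.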
